A study of Mus musculus with 6 samples.

Results

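The genes described here build the actin cytoskeleton and the podosomes of macrophages and osteoclasts. A list of 56 symbols was looked up in the authors' deposited comparison of bone marrow-derived macrophages (BMMs), and 55 of its entries were found among the 15982 genes of the table. The entry left over, Tks4, is another name of Sh3pxd2b, which is on the list under that symbol, and no symbol of the list was repeated. One set of cells, named Bub1 cKO, came from mice in which the mitotic checkpoint kinase gene Bub1 was deleted in myeloid cells, and the cells they were set against, named Ctrl, came from control mice whose genotype is not described further. The sources used here give no Cre driver, deleted exons, strain, age or sex. Cells of both genotypes were held for 3 days in the macrophage growth factor M-CSF at 20 ng/ml. They then received M-CSF at 20 ng/ml and the osteoclast-inducing cytokine RANKL at 50 ng/ml for 2 days, and RNA was taken for 3' tag sequencing with 3 libraries per genotype. The labels do not say whether the libraries of a genotype came from separate mice or cultures, so p-values rest on a spread between libraries that may be technical.

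Podosomes are short-lived adhesion sites with a core of branched actin filaments, surrounded by a ring of integrins and of the adaptor proteins that couple integrins to actin. In osteoclasts they gather into a belt, the sealing zone, which closes off the patch of bone being resorbed. Filaments grow from a pool of actin monomers held by thymosins and profilin, branch at the Arp2/3 complex when proteins of the WASP and WAVE families activate it, and are cut by cofilin and gelsolin. Myosins and tropomyosins then give the ring its tension.

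For each gene the authors' deposited table lists 1 expression value per genotype and the log2 change, standard error, statistic and p-values of a test. Values of single libraries were not used, so no SD between libraries can be given. The expression columns name no unit and are read here as TPM, a unit in which reads are divided by transcript length, because of their sums of 999954 for Bub1 cKO and 999891 for Ctrl. CPM, which does not use length, would add up alike, and in a 3' tag library a division by length puts long transcripts too low, so differences in level between genes are rough. The deposited log2 change is log2 of (Bub1 cKO + 1)/(Ctrl + 1), which makes changes of low genes look smaller than they are. The standard error goes with the test's own log2 change, taken here as the statistic times the standard error and called the tested log2 change. Intervals at 95% are that value plus and minus 1.96 standard errors. A gene is called at an adjusted p under 0.05 in the authors' deposited table, and an unadjusted p under 0.05 is given as a lesser mark. The data are from bulk RNA, in which fewer cells of a type and less RNA per cell cannot be told apart.

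The targeted gene Bub1 was at 5.32 TPM in Bub1 cKO and 6.73 TPM in Ctrl in the authors' deposited table, with a tested log2 change of -0.32 and an interval of -1.15 to 0.50. In a 3' tag library reads come from near the transcript end, and the deleted exons are not given. The level of Bub1 is thus no check of the genotype labels. All 10 macrophage markers looked up were found and added up to 1287 TPM in Bub1 cKO and 2683 TPM in Ctrl, most of it Lyz2, at 762 TPM in Bub1 cKO and 2141 TPM in Ctrl in the authors' deposited table (adjusted p = 0.00033). All 11 osteoclast markers were found, with a sum of 2354 TPM in Bub1 cKO and 2038 TPM in Ctrl. Of the 11, 5 were higher by an unadjusted p under 0.05, where 2.35% of all genes were, and 3 had negative statistics. Itgb3 is among the 5 and is counted again below with the integrins that anchor podosomes. Of the markers of other cells, 2 erythroid genes and 1 neutrophil gene were called, all higher in Bub1 cKO. The 6 of 10 erythroid markers found added up to 358 TPM in Bub1 cKO and 19.6 TPM in Ctrl, and 11 of 12 neutrophil markers to 241 TPM in Bub1 cKO and 102 TPM in Ctrl. In all, 8 of 9 megakaryocyte and platelet markers added up to 294 TPM in Bub1 cKO and 269 TPM in Ctrl. The 12 stromal markers added up to 7.61 TPM in Bub1 cKO and 6.86 TPM in Ctrl, and 4 of 10 lymphoid markers to 0.751 TPM in Bub1 cKO and 1.35 TPM in Ctrl. Dendritic markers, 7 of 8, added up to 78.7 TPM in Bub1 cKO and 69.4 TPM in Ctrl, and of 6 mast cell markers 0 were among the genes analysed here.

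Of the 55 podosome and actin genes, 1 was called, and it was lower in Bub1 cKO: Tmsb4x, which encodes thymosin beta 4, the main peptide that holds actin monomers back from filaments. Across all genes, 0.181% of genes were called in either direction and 0.0688% were called and lower. At an unadjusted p under 0.05, 8 of the 55 genes differed, 4 higher and 4 lower in Bub1 cKO. That is 14.5% of them, beside 4.81% of all genes, made up of 2.35% higher and 2.46% lower. Better-measured genes pass more often: where the mean was 10 TPM or more the share was 8.30% of all genes, and 8 of the 44 podosome and actin genes at that level passed. The share of the listed genes was thus above the background, with no test of the difference. This background was not matched for precision: the median standard error was 0.15 for the 44 genes and 0.32 for all genes at that level. Their changes went both ways, with a median log2 change of 0.01 beside -0.01 over all genes, and 31 statistics were positive and 24 negative.

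**Figure D1:**
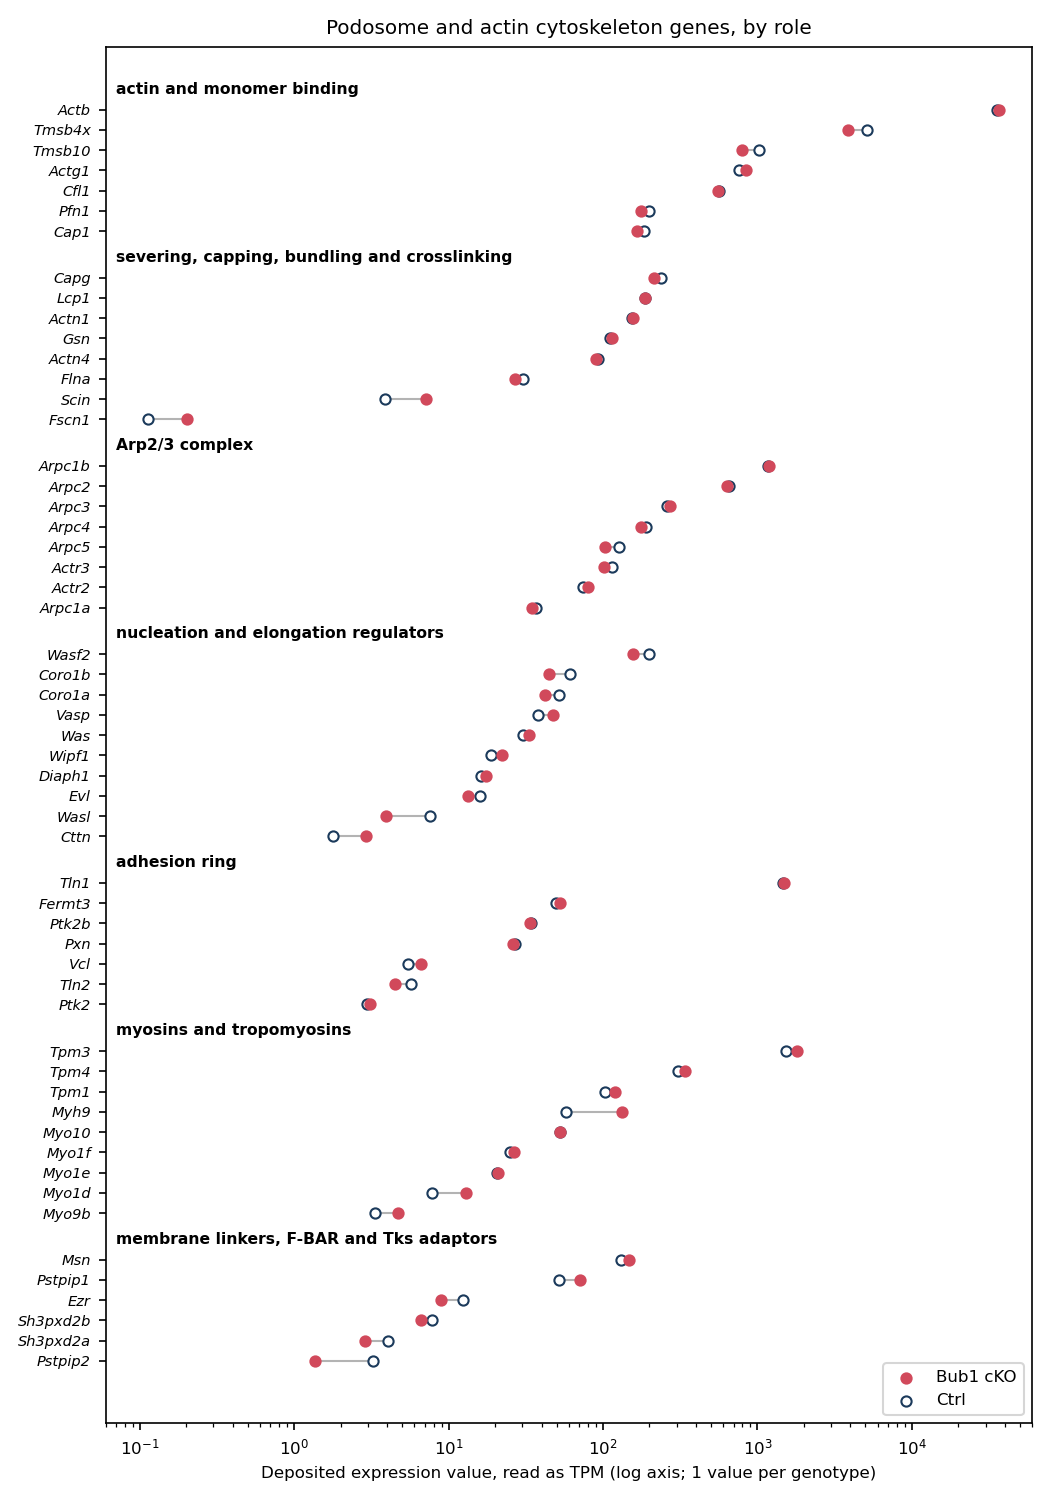
Deposited expression of the 55 podosome and actin genes in Bub1 cKO (filled red) and Ctrl (open blue), on a log axis in TPM, with 1 value per genotype and genes grouped by role. Most pairs of points lie close together. Tmsb4x and Tmsb10 lie to the left in Bub1 cKO, and Myh9 is the gene above 50 TPM in either genotype with the widest gap, at 133 TPM in Bub1 cKO against 57.2 TPM in Ctrl.

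The thymosin result concerns a pair of paralogs whose coding sequences are shown because both were lower. Capitals mark the positions at which they differ, 40 of 135, for an identity of 70.4%. The sequences were taken from the GENCODE M21 transcripts on GRCm38. That of Tmsb4x (chrX:167207501-167208036, minus strand, with an intron between its ends) is shared by all 3 annotated coding transcripts, and that of Tmsb10 (chr6:72957618-72958012, minus strand, also with an intron) by 3 of 4.
Tmsb4x: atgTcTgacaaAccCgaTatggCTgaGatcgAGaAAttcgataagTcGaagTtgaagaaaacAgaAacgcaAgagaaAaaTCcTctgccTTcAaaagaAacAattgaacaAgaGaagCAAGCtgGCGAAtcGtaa
Tmsb10: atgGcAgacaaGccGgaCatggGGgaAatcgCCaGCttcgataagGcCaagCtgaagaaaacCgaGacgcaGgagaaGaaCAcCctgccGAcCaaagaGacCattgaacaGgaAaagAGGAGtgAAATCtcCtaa

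Tmsb4x (ENSMUSG00000049775.16) stood at 3877 TPM in Bub1 cKO and 5153 TPM in Ctrl in the authors' deposited table. It held rank 45 among all genes by level in Bub1 cKO and rank 34 in Ctrl. Its log2 change of -0.41 (standard error 0.094) passed in the authors' deposited table (adjusted p = 0.018). Its tested log2 change, also -0.41, had an interval of -0.59 to -0.22. Tmsb10 (ENSMUSG00000079523.8), the thymosin beta 10 gene with the same monomer-holding role, stood at 794 TPM in Bub1 cKO and 1024 TPM in Ctrl in the authors' deposited table. The authors' deposited table puts its change at -0.37 on the log2 scale (standard error 0.12), and it did not pass (unadjusted p = 0.004, adjusted p = 0.445). The thymosins kept nearly the same proportion to each other, with Tmsb4x at 4.88 times Tmsb10 by TPM in Bub1 cKO and 5.03 times in Ctrl.

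The values of the actin genes were slightly higher in Bub1 cKO, and neither was called. Actb (ENSMUSG00000029580.14), the cytoplasmic beta-actin gene, had the highest value of all genes in both genotypes, 36444 TPM in Bub1 cKO and 35637 TPM in Ctrl in the authors' deposited table. It alone made up 3.64% of all TPM in Bub1 cKO and 3.56% in Ctrl. The interval of its tested log2 change, -0.13 to 0.15, was the narrowest of the list. Actg1, the gamma-actin gene, was at 847 TPM in Bub1 cKO and 759 TPM in Ctrl in the authors' deposited table, where its log2 change is 0.16 (standard error 0.085, unadjusted p = 0.045, adjusted p = 0.985). The summed thymosins came to 12.5% of the summed actins by TPM in Bub1 cKO and to 17.0% in Ctrl, a description with no test of its own. Actb and Actg1 are nearly alike in their coding parts, and the sources used here do not say how reads that fit several places were counted.

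The other monomer-binding genes had intervals that held 0. Cfl1, the filament-cutting cofilin, was at 559 TPM in Bub1 cKO and 566 TPM in Ctrl in the authors' deposited table. Pfn1, the profilin that loads monomers onto growing ends, was at 176 TPM in Bub1 cKO and 199 TPM in Ctrl in the authors' deposited table. Cap1, which recycles monomers released by cofilin, was at 166 TPM in Bub1 cKO and 185 TPM in Ctrl in the authors' deposited table. All 3 had negative statistics, with unadjusted p from 0.329 to 0.715 in the authors' deposited table. Thymosin transcripts are plentiful in platelets and neutrophils as well as in macrophages. Of the platelet markers, Pf4, which macrophages can also express, was at 288 TPM in Bub1 cKO and 266 TPM in Ctrl in the authors' deposited table, and the other 7 found added up to 5.90 TPM in Bub1 cKO and 3.43 TPM in Ctrl. Among these 7, Gp1bb, Gp9 and Gp1ba are listed at 0 in Ctrl by the authors' deposited table. The neutrophil marker sum was higher and the thymosins were lower in Bub1 cKO. Most of the drop in the macrophage marker sum was that of Lyz2, and the other 9 markers added up to 525 TPM in Bub1 cKO and 542 TPM in Ctrl. The largest of these 9, Cd68, was at 306 TPM in Bub1 cKO and 260.1 TPM in Ctrl in the authors' deposited table (unadjusted p = 0.042). Yet 8 of the 10 macrophage statistics were negative. By the unadjusted p, Lyz2, Csf1r, Itgam and Mrc1 were lower and Cd68 alone was higher, where 4.81% of all genes pass. Csf1r was at 96.7 TPM in Bub1 cKO and 116 TPM in Ctrl in the authors' deposited table (unadjusted p = 0.018). The part of other cells in the thymosin result was not tested.

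Of 8 genes for proteins that cap, sever, bundle and crosslink filaments, 0 passed even the unadjusted p, and 6 had an interval within a 1.5-fold change in either direction. Capg, a capping protein of macrophages, was at 215 TPM in Bub1 cKO and 239 TPM in Ctrl in the authors' deposited table. Lcp1, the leukocyte plastin that bundles filaments, was at 186 TPM in Bub1 cKO and 188 TPM in Ctrl in the authors' deposited table, and its tested log2 change lay between -0.19 and 0.18. Actn1, an alpha-actinin that crosslinks filaments, was at 156 TPM in Bub1 cKO and 154 TPM in Ctrl in the authors' deposited table. Gelsolin (Gsn), the severing protein of osteoclast podosomes, was at 115 TPM in Bub1 cKO and 111 TPM in Ctrl in the authors' deposited table. These 4 genes and the crosslinkers Actn4 and Flna are the 6 with intervals within a 1.5-fold change. Scin, the gelsolin relative adseverin, was at 7.19 TPM in Bub1 cKO and 3.85 TPM in Ctrl in the authors' deposited table, with an interval as wide as -0.42 to 2.05 and an unadjusted p of 0.197. Fscn1, the fascin of filopodia, was barely detected at 0.203 TPM in Bub1 cKO and 0.113 TPM in Ctrl in the authors' deposited table, so its standard error of 3.61 allows no statement.

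The 8 subunits of the Arp2/3 complex, which starts branches on existing filaments, added up to 2580 TPM in Bub1 cKO and 2612 TPM in Ctrl. None passed the unadjusted p, with 2 statistics positive and 6 negative, and log2 changes ran from -0.29 to 0.12 in the authors' deposited table. Arpc1b, the form of this subunit that blood cells depend on, was at 1183 TPM in Bub1 cKO and 1164 TPM in Ctrl in the authors' deposited table. Its statistic was negative all the same, with a tested log2 change of -0.07. By TPM Arpc1b exceeded its paralog Arpc1a 34.2-fold in Bub1 cKO and 31.6-fold in Ctrl. Arpc2 was at 632 TPM in Bub1 cKO and 651 TPM in Ctrl, and Arpc3 at 269.9 TPM in Bub1 cKO and 258 TPM in Ctrl, in the authors' deposited table. Actr3 and Actr2, the actin-related subunits from which a branch grows, were at 101 and 80.0 TPM in Bub1 cKO and at 114 and 73.8 TPM in Ctrl in the authors' deposited table. Arpc5, the subunit with the smallest p, was at 103 TPM in Bub1 cKO and 126 TPM in Ctrl in the authors' deposited table (unadjusted p = 0.093). The intervals of 6 subunits lay within a 1.5-fold change, and those of Arpc5 and Arpc1a reached past it on the lower side. Arpc4 overlaps Ttll3 on the same strand, so the split of its reads is uncertain.

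Among the regulators of nucleation and elongation, 2 of 10 passed the unadjusted p, where 4.81% of all genes did. Both were lower in Bub1 cKO, and no test of the list was made. Wasf2 encodes WAVE2, which activates the Arp2/3 complex at the leading edge. It was at 157 TPM in Bub1 cKO and 199 TPM in Ctrl in the authors' deposited table, where its log2 change is -0.34 (standard error 0.16, unadjusted p = 0.006, adjusted p = 0.568). Coro1b, a coronin that removes Arp2/3 from branches, was at 44.7 TPM in Bub1 cKO and 61.0 TPM in Ctrl in the authors' deposited table, where its log2 change is -0.44 (standard error 0.19, unadjusted p = 0.021, adjusted p = 0.861). Coro1b overlaps Rps6kb2 on the other strand, and the sources used here do not say whether counting used the strand. Its leukocyte paralog Coro1a was at 42.1 TPM in Bub1 cKO and 52.3 TPM in Ctrl in the authors' deposited table, also with a negative statistic (unadjusted p = 0.179).

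The activators of the podosome core did not pass. Was, the Wiskott-Aldrich syndrome protein gene on which macrophage podosomes depend, was at 33.0 TPM in Bub1 cKO and 30.3 TPM in Ctrl in the authors' deposited table. Wipf1, the partner that stabilizes it, was at 22.1 TPM in Bub1 cKO and 18.8 TPM in Ctrl in the authors' deposited table. Vasp, which elongates filaments, was at 47.1 TPM in Bub1 cKO and 37.7 TPM in Ctrl in the authors' deposited table (unadjusted p = 0.167). Wasl, the widely expressed relative N-WASP, was at 3.92 TPM in Bub1 cKO and 7.56 TPM in Ctrl, and the Arp2/3 activator cortactin (Cttn) at 2.92 TPM in Bub1 cKO and 1.77 TPM in Ctrl, in the authors' deposited table. Their intervals were wide, -1.41 to 0.51 for Wasl and -0.85 to 2.33 for Cttn, and neither passed. The formin Diaph1 and the Vasp relative Evl did not pass either, with means of 16.9 and 14.6 TPM in the authors' deposited table.

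In the adhesion ring the highest level was that of talin 1 (Tln1), which switches integrins on, at 1492 TPM in Bub1 cKO and 1475 TPM in Ctrl in the authors' deposited table. Fermt3, the kindlin of blood cells that activates integrins with talin, was at 52.6 TPM in Bub1 cKO and 49.5 TPM in Ctrl in the authors' deposited table. Ptk2b, the kinase Pyk2 of the sealing zone, was at 33.6 TPM in Bub1 cKO and 34.3 TPM in Ctrl in the authors' deposited table. None of the 7 passed the unadjusted p, and their smallest unadjusted p was 0.375 in the authors' deposited table. All 7 statistics were positive, where 49.9% of all genes have a positive one, but the deposited log2 changes of Ptk2b, Pxn and Tln2 are below 0. The adaptor Pxn (paxillin) was at 26.3 TPM in Bub1 cKO and 26.7 TPM in Ctrl, and Vcl (vinculin) at 6.60 TPM in Bub1 cKO and 5.45 TPM in Ctrl, in the authors' deposited table. The paralogs Tln2 and Ptk2 (focal adhesion kinase) were low, with means of 5.09 and 3.03 TPM in the authors' deposited table.

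Among the 9 myosins and tropomyosins 2 passed the unadjusted p, where 4.81% of all genes did. Both were higher in Bub1 cKO, and 0 of the 9 were called. All 9 statistics were positive, although the deposited log2 change of Myo10 is -0.01. Their median log2 change was 0.22 as deposited, beside -0.01 over all genes, and 0.17 as tested, beside -0.0015 over all genes. No test of the list was made. Myo1d, a single-headed myosin that links membranes to actin, was at 13.0 TPM in Bub1 cKO and 7.79 TPM in Ctrl in the authors' deposited table, where its log2 change is 0.67 (standard error 0.27, unadjusted p = 0.005, adjusted p = 0.5). Myh9, the heavy chain of non-muscle myosin IIA, was at 133 TPM in Bub1 cKO and 57.2 TPM in Ctrl in the authors' deposited table, a 2.32-fold ratio and a log2 change of 1.20. Its test tells of a smaller difference, a tested log2 change of 0.27 with an interval of 0.04 to 0.51 (unadjusted p = 0.023, adjusted p = 0.874 in the authors' deposited table). Whether the 2.32-fold ratio or the smaller tested change is nearer to the cells' RNA was not tested.

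The 3 tropomyosins, which coat filaments and govern myosin access, each had a positive statistic. Tpm3 was at 1813 TPM in Bub1 cKO and 1536 TPM in Ctrl in the authors' deposited table, with a tested log2 change of 0.10 that did not pass (unadjusted p = 0.313). Tpm4 was at 341 TPM in Bub1 cKO and 306 TPM in Ctrl in the authors' deposited table. Tpm1 was at 120.0 TPM in Bub1 cKO and 103 TPM in Ctrl in the authors' deposited table (unadjusted p = 0.155). Stromal cells also express Tpm1, and the stromal marker sum was 7.61 TPM in Bub1 cKO and 6.86 TPM in Ctrl; their part in the Tpm1 value was not tested. Among the other myosins, Myo10, the motor of filopodia, was at 52.7 TPM in Bub1 cKO and 53.0 TPM in Ctrl, and the class IX myosin Myo9b at 4.73 TPM in Bub1 cKO and 3.32 TPM in Ctrl, in the authors' deposited table. Myo1e and Myo1f, class I myosins of macrophages, had log2 changes of 0.03 and 0.09 in the authors' deposited table.

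**Figure D2:**
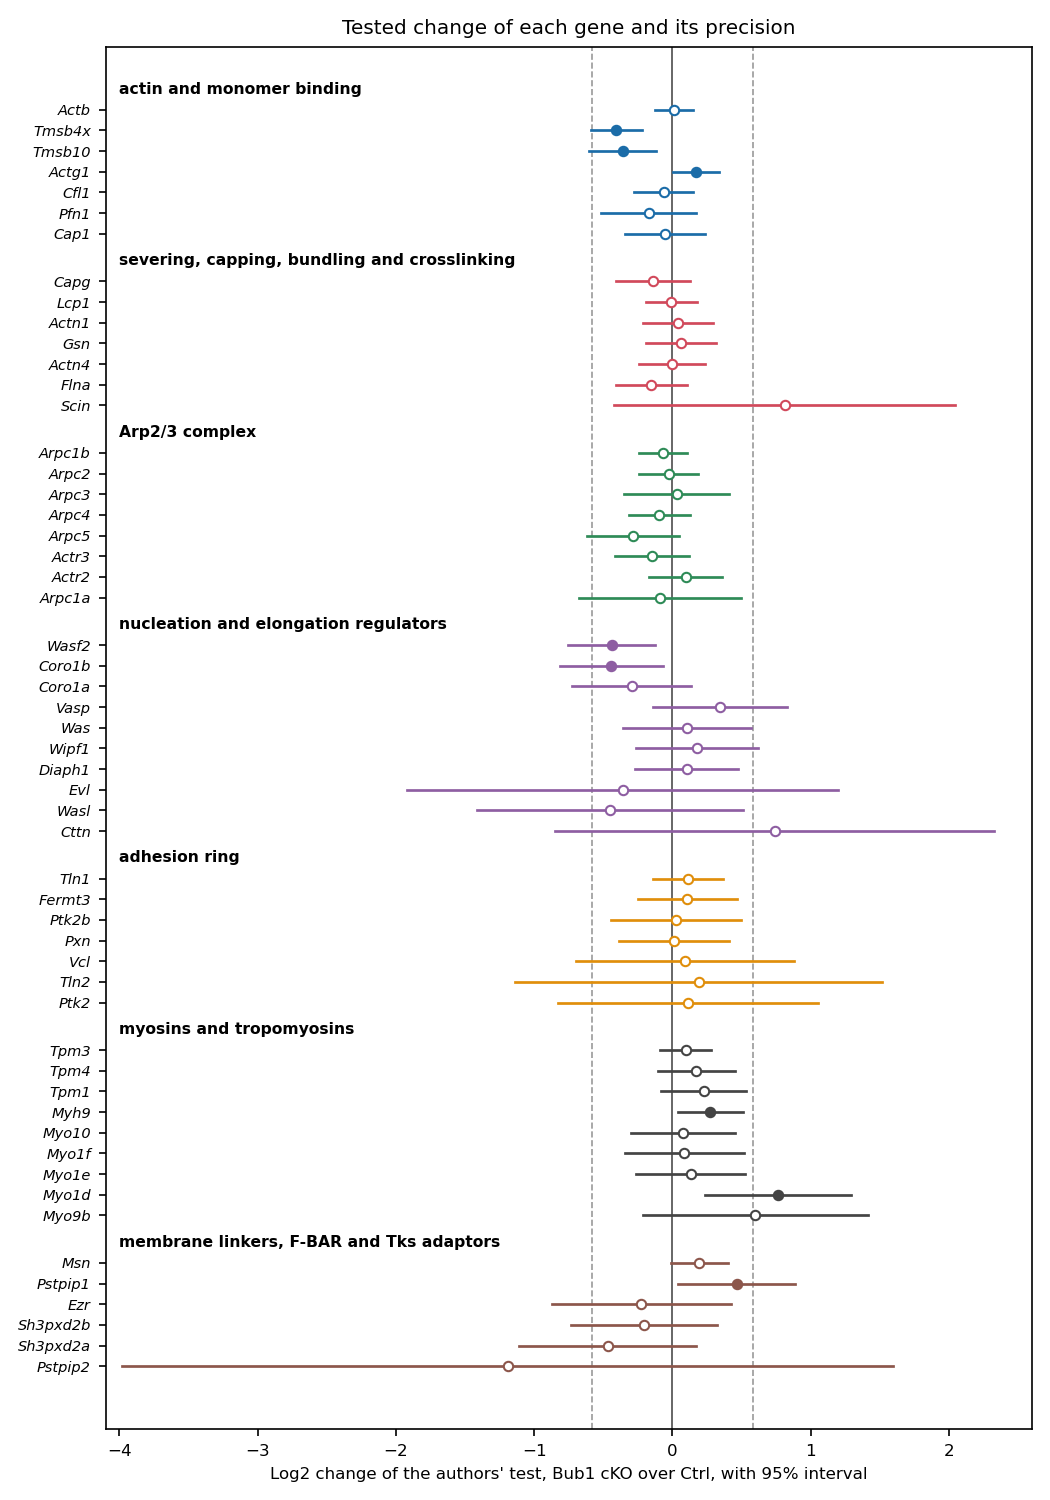
Tested log2 change (Bub1 cKO over Ctrl) of 54 genes with its 95% interval, by role. Filled points have an unadjusted p under 0.05, and dashed lines mark a 1.5-fold change in either direction. The intervals of Tmsb4x, Tmsb10, Wasf2 and Coro1b lie below 0 and those of Actg1, Myh9, Myo1d and Pstpip1 above it, and Fscn1, with a standard error of 3.61, is left out.

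Among membrane linkers and adaptors 1 of 6 genes passed the unadjusted p, where 4.81% of all genes did, and 0 were called. Msn (moesin), the main link between cortical actin and the membrane in leukocytes, was at 148 TPM in Bub1 cKO and 131 TPM in Ctrl in the authors' deposited table (unadjusted p = 0.064). Its relative ezrin (Ezr) was at 8.87 TPM in Bub1 cKO and 12.4 TPM in Ctrl in the authors' deposited table (unadjusted p = 0.495). Pstpip1, an F-BAR adaptor that binds WASP, was at 70.5 TPM in Bub1 cKO and 51.9 TPM in Ctrl in the authors' deposited table, where its log2 change is 0.44 (standard error 0.22, unadjusted p = 0.031, adjusted p = 0.931). Its paralog Pstpip2, whose loss in mice causes inflammatory bone disease, was at 1.37 TPM in Bub1 cKO and 3.24 TPM in Ctrl in the authors' deposited table. Pstpip2 has too wide an interval, -3.98 to 1.60, to set it against Pstpip1. The scaffold genes Sh3pxd2b (Tks4) and Sh3pxd2a (Tks5), which recruit proteases to podosomes, were at 6.67 and 2.88 TPM in Bub1 cKO and at 7.81 and 4.03 TPM in Ctrl in the authors' deposited table, and neither passed.

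The list was measured more tightly than most genes. Of the 44 genes that averaged 10 TPM or more, 31 had an interval wholly within a 1.5-fold change, against 21.2% of all genes at that level. The median standard error was 0.15 for these 44 genes and 0.32 for the 5159 genes at this level, and 23 of the 55 genes averaged 100 TPM or more. For the 11 genes under 10 TPM no interval was that narrow. Changes larger than 1.5-fold could have been missed in these and in those of the 44 genes with wider intervals. Evl, with a mean of 14.6 TPM, had an interval of -1.92 to 1.20. Together the 55 genes made up 5.10% of all TPM in Bub1 cKO and 5.13% in Ctrl, most of it Actb.

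The deposited and the tested log2 change differed by more than 1 standard error in 3 of the 44 genes that averaged 10 TPM or more, where 15.5% of all genes at that level do. These were Myh9, by 7.66 standard errors, Tpm3, by 1.51, and Arpc1b, by 1.01. Ranked by this gap, Myh9 stood in place 9 of the 5159 genes at this level. In GENCODE M21, Myh9 (chr15:77760587-77842175, minus strand, GRCm38) has 3 coding transcripts of 329 to 7433 bases, Tpm3 has 7 of 341 to 2233 bases and Arpc1b has 5 of 295 to 3105 bases. The part of transcript length in these gaps was not tested.

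**Figure D3:**
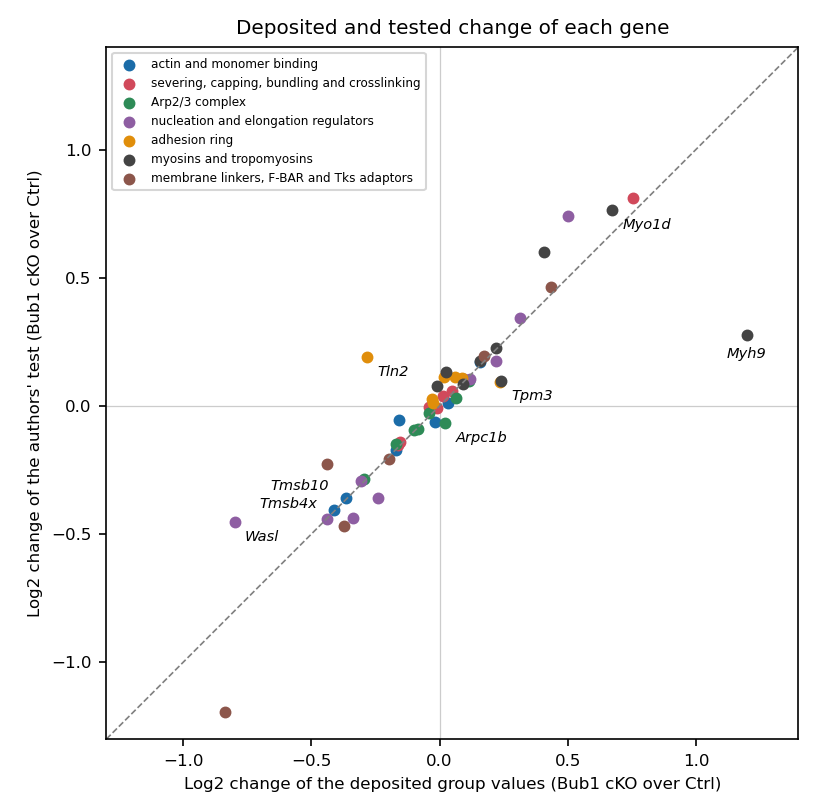
Log2 change of the deposited group values (horizontal) against the tested log2 change (vertical), Bub1 cKO over Ctrl, for 54 genes coloured by role, without Fscn1. Points on the dashed line have equal values. Myh9 lies far to the right of the line at 1.20 deposited and 0.27 tested, while Tmsb4x lies on it at -0.41 on both.

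A sequence feature that the list was not chosen on is the CArG box, the site that serum response factor (SRF), a regulator of many actin genes, can bind. RefSeq promoter windows on GRCm38.p6, from 250 bases before to 50 bases after the start, were at hand for 44 of the 55 genes, without Actb. The box was found in 4 of these genes, or 9.09%, and in 1.81% of the 27025 genes with such a window. Since the box reads the same on both strands, each counts once, and a match is a description, not a site in use. The boxes are shown in capitals with up to 20 bases on either side, because they let the change of each gene be read beside the site it holds.
Actg1 (chr11:120348556-120348605, minus strand): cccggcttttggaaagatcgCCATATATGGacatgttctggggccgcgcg
Vcl (chr14:20929151-20929200, plus strand): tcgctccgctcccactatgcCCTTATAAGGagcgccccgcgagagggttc
Myo1e (chr9:70207298-70207347, plus strand): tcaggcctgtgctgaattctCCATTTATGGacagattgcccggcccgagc
Arpc4 (chr6:113377863-113377892, plus strand): CCTAATTTGGtgcccaacctgaggtcgggc
The log2 changes of these genes in the authors' deposited table were 0.16 for Actg1, 0.24 for Vcl, 0.03 for Myo1e and -0.10 for Arpc4. Of the 4, Actg1 alone passed the unadjusted p. Srf itself was at 4.80 TPM in Bub1 cKO and 6.37 TPM in Ctrl in the authors' deposited table (unadjusted p = 0.3).

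Other genes of the same machinery were counted in 5 further lists, with 141 genes found. Of these, 1 was called, Itgav, where 0.181% of all genes were called. At the unadjusted p 14 passed, 8 of them higher and 6 lower in Bub1 cKO, which is 9.93% of the 141 beside 4.81% of all genes. Of the 141, 86 averaged 10 TPM or more, and 8.30% of all genes at that level passed. Pik3cb, Fmnl2 and Ctgf, among the 14, lay below that level, so 9.93% and 8.30% cover unlike sets of genes. No test of the difference was made. The list of 7 receptors that anchor podosomes held 4 of the 14, 3 higher and 1 lower, where 4.81% of all genes passed. Itgav, the integrin alpha V chain that with Itgb3 forms the vitronectin receptor of the sealing zone, was at 394 TPM in Bub1 cKO and 183 TPM in Ctrl in the authors' deposited table (adjusted p = 0.013). Its partner Itgb3 was at 12.0 TPM in Bub1 cKO and 8.20 TPM in Ctrl, and the matrix receptor Cd44, found in podosome cores, at 72.5 TPM in Bub1 cKO and 56.6 TPM in Ctrl, in the authors' deposited table, with unadjusted p of 0.022 and 0.012. The leukocyte integrin chain Itgam went the other way, at 27.1 TPM in Bub1 cKO and 36.3 TPM in Ctrl in the authors' deposited table (unadjusted p = 0.034). The integrin receptors of podosomes held a call that the adhesion ring inside the cell did not, a contrast between lists that was not tested.

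In integrin-proximal signalling, 5 of 46 genes passed the unadjusted p, 3 higher and 2 lower in Bub1 cKO. That is 10.9% of the list, beside 4.81% of all genes. Of the 46, 29 averaged 10 TPM or more, and 8.30% of all genes at that level passed. Pik3cb, among the 5, lay below that level, and no test of the list was made. Src, the kinase without which osteoclasts form no ruffled border, was at 12.8 TPM in Bub1 cKO and 7.91 TPM in Ctrl in the authors' deposited table (unadjusted p = 0.047). Ptpre, a phosphatase that activates Src in osteoclasts, was at 18.8 TPM in Bub1 cKO and 11.1 TPM in Ctrl in the authors' deposited table (unadjusted p = 0.018). Pik3cb, a catalytic subunit of PI3-kinase, was at 10.5 TPM in Bub1 cKO and 5.96 TPM in Ctrl in the authors' deposited table. On the lower side, the adaptor Fyb was at 311 TPM in Bub1 cKO and 345 TPM in Ctrl and the adaptor Sh3bp2 at 21.4 TPM in Bub1 cKO and 25.0 TPM in Ctrl in the authors' deposited table. Their tested log2 changes, -0.38 for Fyb and -0.53 for Sh3bp2, were larger in size than the deposited -0.15 and -0.21.

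Among 63 further actin regulators 4 passed the unadjusted p, 1 higher and 3 lower in Bub1 cKO, a share of 6.35% that is near the background. The formin Fmnl2 was at 5.55 TPM in Bub1 cKO and 2.54 TPM in Ctrl in the authors' deposited table (unadjusted p = 0.005). Abi1, a subunit of the WAVE complex to which Wasf2 belongs, was at 19.4 TPM in Bub1 cKO and 30.6 TPM in Ctrl in the authors' deposited table (unadjusted p = 0.02). Sptbn1, a spectrin of the cortex, was at 27.9 TPM in Bub1 cKO and 32.2 TPM in Ctrl, and Marcks, a membrane-bound actin binder, at 11.3 TPM in Bub1 cKO and 16.3 TPM in Ctrl, in the authors' deposited table. The tested log2 change of Sptbn1, -0.69, was larger in size than its deposited -0.20.

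Of 19 further genes for myosins, light chains, their regulators and a tropomyosin, 0 passed the unadjusted p, and 9 statistics were positive and 10 negative. Myl6, a light chain that pairs with Myh9, was at 1229.7 TPM in Bub1 cKO and 1359 TPM in Ctrl in the authors' deposited table (unadjusted p = 0.211). Myl12b, a regulatory light chain, was at 38.1 TPM in Bub1 cKO and 52.7 TPM in Ctrl in the authors' deposited table (unadjusted p = 0.095). Of 6 SRF-related genes, 1 passed the unadjusted p, where 4.81% of all genes did: Ctgf, a matrix protein gene. It was barely detected, listed at 0.822 TPM in Bub1 cKO and 0 TPM in Ctrl in the authors' deposited table. Its interval, 0.48 to 9.14, is too wide for a statement on size.

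**Figure D4:**
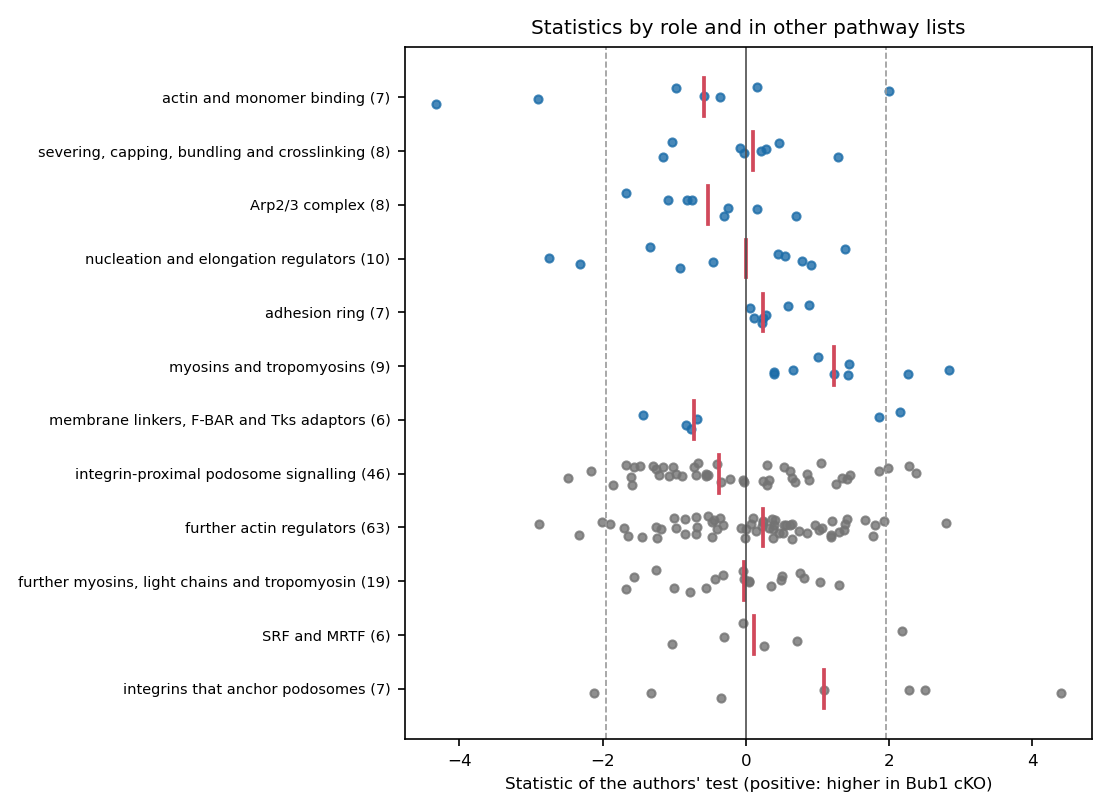
Statistic of the authors' test for each gene (positive means higher in Bub1 cKO), for the 7 roles of the list (blue) and 5 further pathway lists (grey), with list sizes in brackets. Red bars are medians and dashed lines mark 1.96 in either direction. Tmsb4x is the lowest point at -4.32 and Itgav the highest at 4.40, and all 9 myosins and tropomyosins lie above 0.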

How the data were processed

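The RNA input was 25 ng per library in a 3' tag kit (QuantSeq), per the labels' protocols. The header of the authors' deposited table names the service RaNA-seq. The sources used here give no quantifier, genome build, annotation or test for it. Its expression values, 1 per genotype, were read as TPM as deposited by the authors. Its log2 changes, its p-values (unadjusted and adjusted) and its score columns (statistic and standard error) were used as the authors deposited them. The authors' adjusted p was the test for a comparison table. Depth is unknown, and the standard error stands for precision.

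Computed here, with Python 3.11.15, pandas 2.3.3 and scipy 1.17.1, were intervals, sums, ratios and Benjamini-Hochberg adjustment over other sets of genes, the last tested on simulated data. The members and lists were chosen with earlier results of these data known, and 1 further list is not reported here. Values were given, by rule, for genes with an unadjusted p under 0.05, the 3 highest of each role, members under 1 TPM, relatives of these, and from further lists the called genes and up to 4 with the smallest p. Src and some members were named for their role, after their values were seen. By ID all 55 genes matched GENCODE M21, 48 of them with the same version.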

Additional observations from a re-analysis of the deposited data

How the results depend on the processing

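Tmsb4x remained the one called gene at an adjusted p under 0.1 and with p adjusted again over genes with a mean of at least 1 or 10 TPM, and Itgav the one call of the further lists at 0.1 and over genes of at least 1 TPM. All 8 genes with an unadjusted p under 0.05 had a mean of at least 10 TPM and kept their direction with a pseudocount of 5, after recentring on the median of 0.01 and in the tested log2 change, which was chosen after seeing the data. Only Myh9 moved by more than its standard error, in the tested log2 change (0.27 in place of 1.20). The median log2 change of the list ran from 0.00 to 0.03 over 5 alternatives. Without Myh9, Tpm3 and Arpc1b, also left out after seeing the data, 7 genes passed the unadjusted p. No member's symbol was repeated, so summing over repeats was not run. Leaving out libraries could not be done without values per library. No paired analysis was possible because the deposited columns carry no replicate numbers.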
